A study of Mus musculus with 10 samples.

Results

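Thrombospondins, SPARC and hevin are secreted matrix proteins through which astrocytes act on synapses, and 7 genes are described here: *Thbs1*, *Thbs2*, *Thbs3* and *Thbs4*, *Sparc*, *Sparcl1*, which encodes hevin, and *Cacna2d1*, which encodes the neuronal thrombospondin receptor α2δ-1. They were taken by symbol from the platform annotation, requiring a probe set annotated to that gene alone, out of 22180 genes with such a probe set. Each of the 7 genes had 1 probe set. Of these, 6 passed the filter on dim probe sets (a mean log2 level of at least 5.32 over the 10 arrays) and were among the 17712 genes tested, and *Cacna2d1* did not pass.

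RNA was measured on 10 Affymetrix arrays from mouse cortex at 8 weeks of age, 5 labelled FMR1-KO and 5 labelled Control (wild type). The cells were sorted by flow cytometry on an EGFP reporter active in astrocytes, which all 10 samples share. No source used here gives the promoter behind the reporter, the *Fmr1* allele, or whether an array holds 1 animal or a pool, so p-values measure only the spread between these samples. Values are log2 signal levels as deposited by the authors, and a level of 1 probe set cannot be set against that of another. In bulk material such as this, fewer cells of a type and less RNA per cell cannot be told apart.

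Thrombospondins fall into 2 groups by assembly, THBS1 and THBS2 forming trimers and THBS3 and THBS4 forming pentamers. Secreted thrombospondins bind α2δ-1 on neurons, a calcium channel subunit that is also the receptor for gabapentin, and promote the formation of structurally normal but postsynaptically silent synapses. Hevin bridges neurexins and neuroligins across the synaptic cleft, and SPARC, its relative, counteracts the synapse-forming action of hevin. In the adult brain hevin is made in large amounts by astrocytes, while SPARC is also made by microglia and endothelial cells.

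*Fmr1*, the targeted gene, read 8.32, 8.38, 8.26, 8.15 and 8.01 on the FMR1-KO arrays 1 to 5 and 8.28, 7.60, 8.03, 8.17 and 8.10 on the Control arrays 1 to 5, so its mean was higher, not lower, under the FMR1-KO label (difference 0.19 ± 0.13, SE; limma adjusted p = 0.704). No source used here says whether the probe set reads the disrupted part of the gene, so this gene gives no check of the labels. *Xist*, transcribed from the inactive X chromosome of female cells, read 4.98 to 5.23 on all 5 FMR1-KO arrays, 10.60 and 10.98 on Control arrays 2 and 3, and 5.03 to 5.10 on the other Control arrays. The arrays also differed in the markers of astrocytes and microglia. All 10 astrocyte markers and 11 of the 12 microglia markers were measured. The mean log2 level of the 11 microglia markers was 9.87, 9.32, 10.70, 10.73 and 10.47 on the FMR1-KO arrays 1 to 5 and 10.04, 10.81, 11.05, 10.97 and 11.01 on the Control arrays 1 to 5. FMR1-KO arrays 1 and 2 and Control array 1 were thus the 3 arrays with the least microglia signal, and they also had the highest mean of the 10 astrocyte markers, at 10.75, 10.82 and 10.35, against 9.71 to 10.09 on the other arrays. All 11 microglia markers had a lower mean and all 10 astrocyte markers a higher mean in the FMR1-KO arrays.

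No gene of the 6 tested passed the threshold between FMR1-KO and Control arrays (limma, Benjamini-Hochberg adjusted p under 0.05 over all genes), and neither did any other gene, so the background was 0% of 17712 genes. Of the 6, 5 had a higher mean in FMR1-KO arrays, beside 46.8% of all genes, and *Sparc* had a lower one. At an unadjusted p under 0.05, 1 of the 6 was higher, *Thbs3*, where 4% of all genes were, and 0 of the 6 were lower, where 3.53% of all genes were (7.53% in either direction). This count of 1 rested on the arrays and the fit: it was 0 without FMR1-KO array 1, without Control array 5, without the 3 arrays low in microglia markers, and after adjustment for either marker mean. Without FMR1-KO array 3 the count stayed 1, but the gene was *Sparcl1* (limma unadjusted p = 0.0298) and not *Thbs3* (limma unadjusted p = 0.0522). The count among the 6 was 3 higher without FMR1-KO array 5, where 1130 of all genes were higher and 500 lower. It was 3 higher with 1 lower without Control array 1, where 1170 of all genes were higher and 1255 lower. The median difference of the 6 genes was 0.18 on the log2 scale, beside -0.01 over all genes. For 0 of the 6 did the groups separate without overlap, beside 0.965% of all genes.

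**Figure D1:**
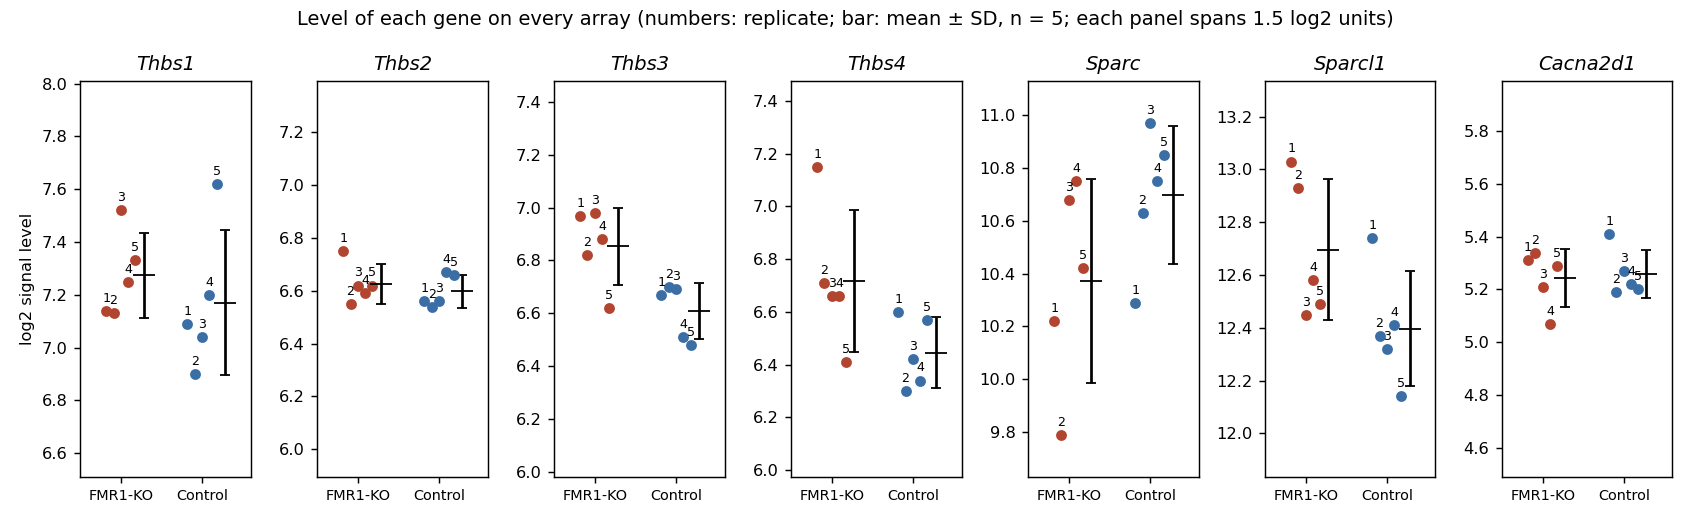
Each panel plots 1 gene's log2 signal level on every array, FMR1-KO at the left and Control at the right, with the replicate number above each point and the mean ± SD (n = 5) as a bar. All panels span 1.5 log2 units. *Thbs2* and *Cacna2d1* are nearly flat, while *Sparc* ranges from 9.79 on FMR1-KO array 2 to 10.97 on Control array 3.

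*Thbs1* and *Thbs2*, the trimeric thrombospondins, differed little between the groups. *Thbs1*, which promotes synapse formation when secreted by astrocytes and also activates latent TGF-β, read 7.14, 7.13, 7.52, 7.25 and 7.33 on the FMR1-KO arrays 1 to 5 and 7.09, 6.90, 7.04, 7.20 and 7.62 on the Control arrays 1 to 5. The highest and the lowest arrays were both Controls, and the groups overlapped throughout. Its difference was 0.11 ± 0.13 (SE) on the log2 scale, or 1.08-fold with a 95% interval of 0.881 to 1.31 (limma adjusted p = 0.852). That difference moved both ways with the arrays and the fit: it was -0.03 ± 0.14 (SE) without Control arrays 2 and 3, 0.04 without FMR1-KO array 3 or Control array 2, 0.22 without Control array 5 and 0.21 ± 0.14 (SE) after adjustment for the microglia marker mean.

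*Thbs2*, also a trimer and made by immature astrocytes, read 6.75, 6.55, 6.62, 6.59 and 6.62 on the FMR1-KO arrays and 6.56, 6.54, 6.56, 6.67 and 6.66 on the Control arrays. All 10 values lay within 0.21 log2 units, and 1.0% of the tested genes had a smaller SD over the 10 arrays. The difference was 0.03 ± 0.07 (SE), or 1.02-fold with an interval of 0.914 to 1.14 (limma adjusted p = 0.938). This interval was the narrowest among the 4 thrombospondins. The mean level of *Thbs2* over all arrays was 6.61, not far above the array medians of 6.11 to 6.24. Whether its probe set read above background is not known from the deposited values. The narrow interval therefore does not show that *Thbs2* was unchanged.

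*Thbs3* and *Thbs4*, the pentameric thrombospondins, had the higher means in FMR1-KO arrays. *Thbs3* read 6.97, 6.82, 6.98, 6.88 and 6.62 on the FMR1-KO arrays 1 to 5 and 6.67, 6.70, 6.69, 6.51 and 6.48 on the Control arrays 1 to 5. Of the FMR1-KO arrays 4 of 5 lay above every Control, and array 5 fell among the Controls. The difference was 0.24 ± 0.09 (SE), or 1.18-fold with an interval of 1.03 to 1.36 (limma unadjusted p = 0.0197, adjusted p = 0.654). It was 0.30 ± 0.10 (SE) without the Xist-positive Control arrays 2 and 3, 0.23 ± 0.12 without the 3 arrays low in microglia markers, and 0.23 ± 0.11 after adjustment for the mean of the microglia markers as a covariate. The size of the *Thbs3* difference was much the same in each of these fits, while its unadjusted p was 0.017, 0.0707 and 0.0521 in that order, so that it stayed under 0.05 in the first of them alone.

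*Thbs4*, a pentameric thrombospondin found in muscle, tendon and adult brain, read 7.15, 6.71, 6.66, 6.66 and 6.41 on the FMR1-KO arrays and 6.60, 6.30, 6.42, 6.34 and 6.57 on the Control arrays. Again 4 of the 5 FMR1-KO arrays lay above every Control and array 5 did not, and FMR1-KO array 1 stood highest. The difference was 0.27 ± 0.13 (SE), or 1.21-fold with an interval of 0.997 to 1.46 (limma adjusted p = 0.654). Its size ran from 0.13 to 0.35 over the alternative fits, a wider range than the 0.21 to 0.30 of *Thbs3*. The *Thbs4* difference was 0.35 ± 0.12 (SE) without FMR1-KO array 5 and 0.16 without FMR1-KO array 1. It was 0.17 ± 0.11 (SE) without the 3 arrays low in microglia markers. After adjustment for the microglia marker mean it was 0.17 ± 0.13, and after adjustment for the astrocyte marker mean 0.13 ± 0.12.

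The windows around the starts of *Thbs2*, *Thbs3* and *Thbs4* are shown because these genes lay at opposite ends of the thrombospondin differences. RefSeq windows were listed for 5 of the 7 genes in build GRCm38.p6, all but *Thbs1* and *Sparcl1*. Those of the thrombospondins and *Sparc* run from 250 bases before to 50 after the gene's start. That of *Cacna2d1* begins at chr5:15934441, inside the gene, whose listed start is 15934264. The windows were searched on both strands for the GC box (GGGCGG), the CCAAT box (CCAAT), the TATA box (TATAAA) and the AP-1 site (TGANTCA), and capitals mark each match. The windows lie at chr3:89214930-89215229 on the plus strand for *Thbs3*, chr13:92794769-92795068 on the minus strand for *Thbs4* and chr17:14694213-14694512 on the minus strand for *Thbs2*.
Thbs3: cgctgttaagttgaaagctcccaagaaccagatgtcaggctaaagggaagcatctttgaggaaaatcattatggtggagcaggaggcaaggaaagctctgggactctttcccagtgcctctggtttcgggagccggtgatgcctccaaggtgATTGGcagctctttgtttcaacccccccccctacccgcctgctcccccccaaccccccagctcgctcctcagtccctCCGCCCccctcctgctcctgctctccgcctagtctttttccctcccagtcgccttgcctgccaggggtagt
Thbs4: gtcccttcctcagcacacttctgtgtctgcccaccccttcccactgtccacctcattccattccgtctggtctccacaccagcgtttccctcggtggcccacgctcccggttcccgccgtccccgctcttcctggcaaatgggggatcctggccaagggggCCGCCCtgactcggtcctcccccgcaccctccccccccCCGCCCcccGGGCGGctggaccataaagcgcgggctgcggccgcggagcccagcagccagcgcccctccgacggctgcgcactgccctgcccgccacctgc
Thbs2: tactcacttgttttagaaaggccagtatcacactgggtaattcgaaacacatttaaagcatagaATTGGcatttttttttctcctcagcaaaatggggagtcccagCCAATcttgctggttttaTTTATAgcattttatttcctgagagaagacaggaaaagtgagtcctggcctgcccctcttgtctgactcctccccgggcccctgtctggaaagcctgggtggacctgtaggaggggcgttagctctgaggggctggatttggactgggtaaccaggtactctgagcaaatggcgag
A GC box, found in 35.7% of all 32851 windows, lay 21 bases before the start of *Thbs3* and 89, 51 and 42 bases before that of *Thbs4*, and the *Thbs2* window held none. A CCAAT box, found in 37.4% of windows, lay 98 bases before the start of *Thbs3* and 186 and 144 bases before that of *Thbs2*. A TATA box, found in 13.6%, lay 126 bases before the start of *Thbs2*, and an AP-1 site, found in 7.8%, was in none of the 3 windows. GC content was 59.0% for *Thbs3*, 72.0% for *Thbs4* and 48.3% for *Thbs2*. Also listed, but not printed, were the windows of *Cacna2d1* and *Sparc*. That of *Cacna2d1*, with a difference of -0.02, held several GC boxes and had 80.0% GC. That of *Sparc*, with a difference of -0.33, held none of these motifs and had 55.3% GC. A link between the motifs and the differences was not tested. These are matches of letters and do not show that a factor binds there.

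*Sparc*, the matrix glycoprotein that counteracts hevin, was the gene with the lower mean in FMR1-KO arrays. It read 10.22, 9.79, 10.68, 10.75 and 10.42 on the FMR1-KO arrays 1 to 5 and 10.29, 10.63, 10.97, 10.75 and 10.85 on the Control arrays 1 to 5. FMR1-KO arrays 1 and 2 lay below every Control, and the others overlapped with the Controls. The difference was -0.33 ± 0.18 (SE), or 0.798-fold with an interval of 0.606 to 1.05 (limma adjusted p = 0.672).

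At its low end and at its top, the order of the arrays in *Sparc* was that of the microglia markers. The 4 arrays with the lowest *Sparc* were, from the bottom, FMR1-KO array 2, FMR1-KO array 1, Control array 1 and FMR1-KO array 5, and the 4 lowest in the microglia marker mean were the same arrays in the same order. Control array 3 was highest in both. Between them the orders differed, since Control array 2 lay below FMR1-KO arrays 3 and 4 in *Sparc* and above them in the microglia marker mean. After adjustment for the microglia marker mean, the *Sparc* difference was 0.02 ± 0.09 (SE), with the sign turned, and without the 3 arrays low in microglia markers it was -0.19 ± 0.12 (SE). With the astrocyte marker mean as a covariate, a fit added after the values were seen, it was -0.06 ± 0.14 (SE).

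*Sparcl1*, hevin, had a higher mean in FMR1-KO arrays. It read 13.03, 12.93, 12.45, 12.58 and 12.49 on the FMR1-KO arrays 1 to 5 and 12.74, 12.37, 12.32, 12.41 and 12.14 on the Control arrays 1 to 5. All 5 FMR1-KO arrays lay above the Control mean of 12.39, and 2 of them, arrays 1 and 2, above every Control. The difference was 0.30 ± 0.14 (SE), or 1.23-fold with an interval of 0.997 to 1.53 (limma adjusted p = 0.654). The brightest value of any probe set was 13.86, so the hevin signal lay near the top of the scale, and whether its probes were saturated is not known from the deposited values.

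The arrays with the highest hevin were those with the lowest *Sparc*. FMR1-KO arrays 1 and 2 and Control array 1 held the 3 highest *Sparcl1* levels, the 3 lowest *Sparc* levels, the 3 highest astrocyte marker means and the 3 lowest microglia marker means. Without these 3 arrays the *Sparcl1* difference was 0.20 ± 0.11 (SE). It was 0.07 ± 0.11 (SE) after adjustment for the microglia marker mean and 0.07 ± 0.09 (SE) after adjustment for the astrocyte marker mean. *Sparc*, *Sparcl1* and *Thbs4* thus had differences nearer 0 once a marker mean was in the fit. In the same 2 fits that of *Thbs3* was 0.23 and 0.21, and that of *Thbs1* was 0.21 and 0.20, farther from 0 than without a covariate.

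**Figure D2:**
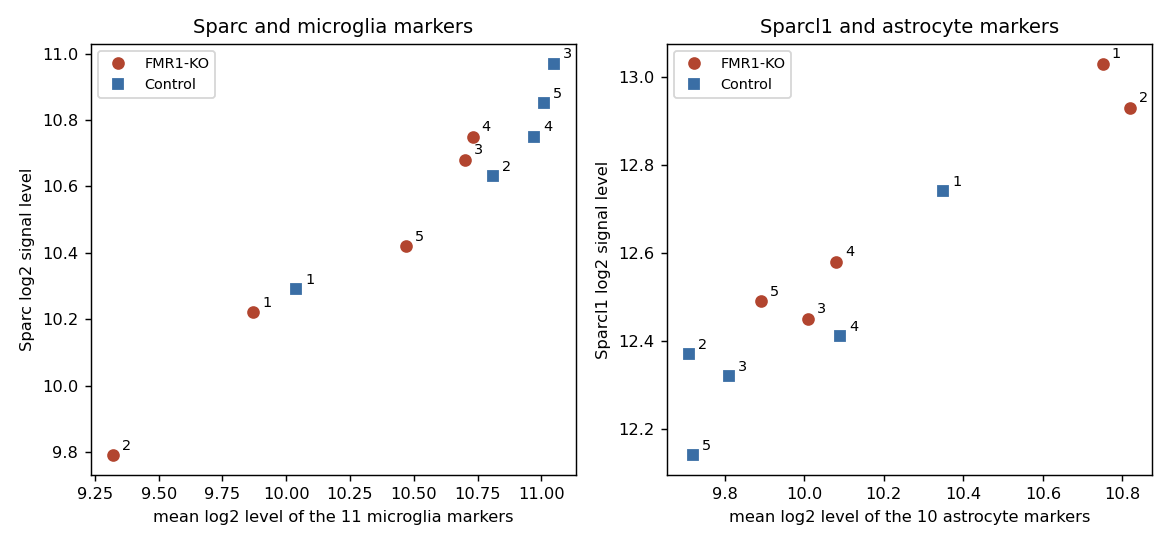
The left panel plots the *Sparc* log2 signal level against the mean log2 level of the 11 microglia markers, and the right panel *Sparcl1* against that of the 10 astrocyte markers. Each point is an array with its replicate number, circles for FMR1-KO and squares for Control. FMR1-KO arrays 1 and 2 and Control array 1 lie at the low end at the left and at the high end at the right.

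*Cacna2d1*, the α2δ-1 receptor subunit that thrombospondins bind on neurons, read 5.31, 5.34, 5.21, 5.07 and 5.29 on the FMR1-KO arrays 1 to 5 and 5.41, 5.19, 5.27, 5.22 and 5.20 on the Control arrays 1 to 5. Its mean over all arrays, 5.25, lay below the filter of 5.32, and the groups overlapped. In a fit of all 22180 genes without the filter the difference was -0.02 ± 0.07 (SE), or 0.989-fold with an interval of 0.887 to 1.10 (limma adjusted p = 0.976). A signal this dim can hide a change, so these values do not show that *Cacna2d1* was unchanged. The 6 neuron markers that passed the filter, out of 7, had a mean between 5.90 and 6.05 on FMR1-KO arrays and between 5.85 and 6.14 on Control arrays.

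**Figure D3:**
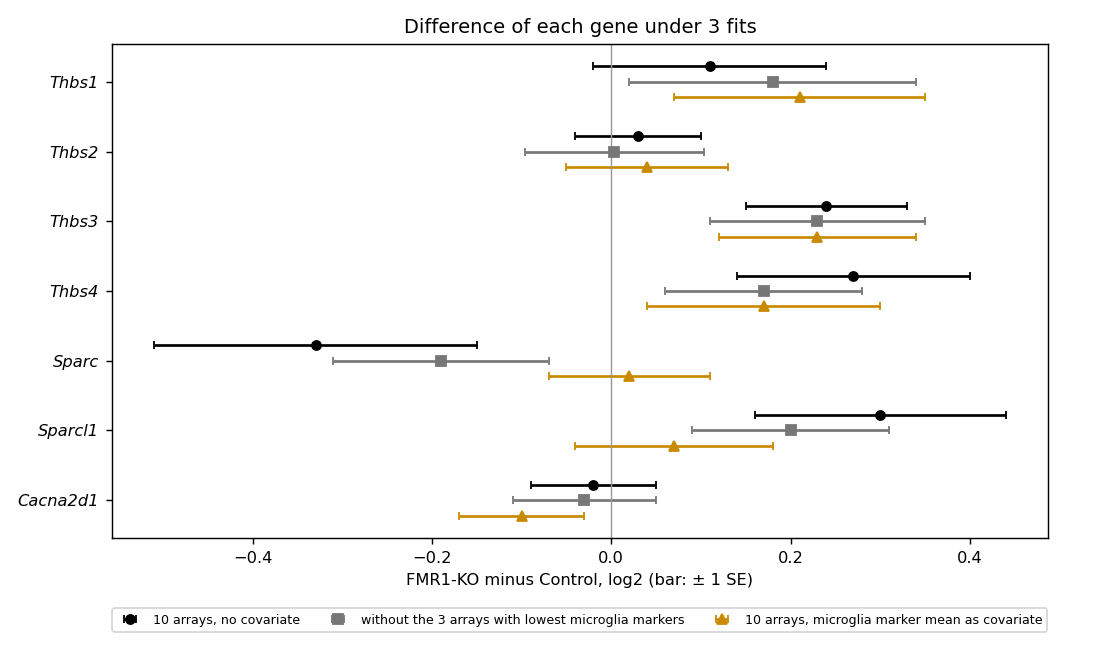
Points give the FMR1-KO minus Control difference of each gene on the log2 scale with ± 1 SE, from the fit of all 10 arrays (circles), the fit without the 3 arrays low in microglia markers (squares), and the fit adjusted for the microglia marker mean (triangles); *Cacna2d1* is from fits without the filter. *Thbs3* stays at 0.23 to 0.24, while *Sparc* goes to 0.02 and *Sparcl1* to 0.07 with the covariate.

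Further marker lists were read beside these genes, and their part in the results above was not tested. Endothelial cells, which make both SPARC and hevin, had 7 of 8 markers measured, 6 of them with a lower mean in FMR1-KO arrays, and list means of 6.34 to 6.44 on FMR1-KO arrays and 6.40 to 6.84 on Control arrays. The early genes that cell dissociation induces, 8 of 8 measured, all had a lower mean, and their list means ran from 8.09 to 9.96 on FMR1-KO arrays and from 9.01 to 10.47 on Control arrays. Pericyte and smooth muscle markers gave 7.14 to 7.46 on FMR1-KO arrays and 6.88 to 7.37 on Control arrays, and fibroblast markers 6.89 to 7.41 on FMR1-KO arrays and 6.64 to 7.24 on Control arrays. FMR1-KO array 1, on which *Thbs2* and *Thbs4* were highest, was also highest in both of these lists. Choroid plexus markers ran from 8.88 to 10.37 on FMR1-KO arrays and from 9.41 to 10.45 on Control arrays, oligodendrocyte markers from 6.40 to 6.69 on FMR1-KO arrays and from 6.33 to 6.62 on Control arrays, and oligodendrocyte precursor markers from 6.80 to 7.39 on FMR1-KO arrays and from 6.73 to 7.07 on Control arrays.

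The genes with the most similar profiles were found by the root mean square (RMS) difference of log2 levels over the 10 arrays, after each gene's own mean was subtracted. For *Sparc*, which had an SD of 0.36 over the arrays, they were *Ctsz*, a lysosomal cathepsin, at 0.054 and *Serinc3*, a membrane protein of the serine incorporator family, at 0.064. For *Sparcl1*, with an SD of 0.28, they were the kainate receptor subunit *Grik5* at 0.060 and *Clu*, the secreted chaperone clusterin, at 0.061. For these 4 genes the RMS difference was 0.15 to 0.22 of the SD of the gene they were matched to, and for the matches that follow it was 0.33 to 0.68, on profiles that vary less. The nearest to *Thbs1* (SD 0.22) were *Gtf2f1* and *Ddx10*, both at 0.087, and to *Thbs3* (SD 0.18) *Lca5l* at 0.093 and *Kcnk5* at 0.097. *Thbs4* (SD 0.25) was matched by *Ttc26* at 0.084 and *Gstm7* at 0.092, *Thbs2* (SD 0.07) by *Mttp* and *Wrn* at 0.045, and *Cacna2d1* (SD 0.10) by *Satb1* at 0.031 and *Endou* at 0.035.

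The partners of these proteins were read from 7 lists holding 83 genes, of which 80 were measured, and 0 passed the threshold (limma, adjusted over all genes; 3 higher and 3 lower at an unadjusted p under 0.05). That is 3.75% of the 80 genes in each direction, beside 4% higher and 3.53% lower among all genes. For the counts of higher and lower means that follow, 46.8% of all genes had a higher mean in FMR1-KO arrays. Of 11 calcium channel subunits, 5 had a higher mean in FMR1-KO arrays and 6 a lower one, with a median difference of -0.03. *Cacna2d2*, the paralog α2δ-2, averaged 7.65 ± 0.32 (SD, n = 5) on FMR1-KO arrays and 7.12 ± 0.41 (SD, n = 5) on Control arrays, a difference of 0.54 ± 0.20 (SE; limma adjusted p = 0.654). The channel β subunit *Cacnb2* differed by -0.38 ± 0.20 (SE; limma adjusted p = 0.669). *Comp*, the fifth thrombospondin, differed by -0.03 ± 0.09 (SE).

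Receptors through which thrombospondins act or are taken up had 9 higher and 8 lower means among 17, with a median of 0.01. The integrin subunit *Itgb3* averaged 7.38 ± 0.52 on FMR1-KO arrays and 7.89 ± 0.31 on Control arrays (SD, n = 5 each), a difference of -0.51 ± 0.23 (SE; limma adjusted p = 0.654). *Lrp8*, the lipoprotein receptor ApoER2, differed by 0.37 ± 0.20 (SE; limma adjusted p = 0.669). The classical thrombospondin-1 receptors *Cd36* and *Cd47* differed by -0.18 ± 0.14 and 0.06 ± 0.14 (SE).

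The SPARC family with *Comp* had 3 higher and 4 lower means among 7, with a median of -0.01. *Fstl1*, follistatin-like 1, averaged 7.94 ± 0.37 on FMR1-KO arrays and 7.56 ± 0.25 on Control arrays (SD, n = 5 each), a difference of 0.38 ± 0.17 (SE; limma adjusted p = 0.654), and the testican *Spock1* differed by -0.24 ± 0.12 (SE). Of 14 matrix ligands, receptors and proteases of SPARC and hevin, 8 had a higher mean and 6 a lower one, with a median of 0.08. The gelatinase *Mmp2* averaged 6.83 ± 0.44 on FMR1-KO arrays and 7.41 ± 0.32 on Control arrays (SD, n = 5 each), a difference of -0.58 ± 0.21 (SE; limma adjusted p = 0.654). *Stab1*, the macrophage receptor that takes up SPARC, averaged 9.29 ± 0.74 on FMR1-KO arrays and 9.93 ± 0.48 on Control arrays (SD, n = 5 each), a difference of -0.64 ± 0.33 (SE; limma adjusted p = 0.664).

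Neurexins and neuroligins, which hevin bridges, had a higher mean in FMR1-KO arrays in 5 of 5 measured genes, with a median of 0.21, and 0 had an unadjusted p under 0.05. *Nlgn3* differed by 0.41 ± 0.19 (SE; limma adjusted p = 0.655) and *Nlgn1* by 0.36 ± 0.20 (SE; limma adjusted p = 0.675). The list mean was 7.96 and 8.04 on FMR1-KO arrays 1 and 2 and 7.36 to 7.43 on FMR1-KO arrays 3 to 5. Among Controls it was 7.75 for array 1 and 7.22 to 7.37 for arrays 2 to 5, so the 3 arrays high in astrocyte markers were the highest here too. Genes of TGF-β storage and signalling, on which thrombospondin-1 acts, had 7 higher and 9 lower means among 16, with a median of -0.05. In that list *Ltbp1*, a latent TGF-β binding protein, differed by 0.39 ± 0.17 (SE), and the receptor *Tgfbr1* averaged 9.98 ± 0.71 on FMR1-KO arrays and 10.68 ± 0.35 on Control arrays (SD, n = 5 each), a difference of -0.70 ± 0.30 (SE; limma adjusted p = 0.654 for both). Other secreted factors that act on synapses had 8 higher and 2 lower means among 10, with a median of 0.23, among them the growth factor pleiotrophin, *Ptn*, at 0.43 ± 0.24 (SE) and the cytokine *Tnf* at -0.42 ± 0.20 (SE). FMR1-KO arrays 1 and 2 and Control array 1 had the highest means of this list, at 7.72, 7.86 and 7.40. They had the lowest means of the TGF-β list, at 7.81, 7.63 and 7.83.

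**Figure D4:**
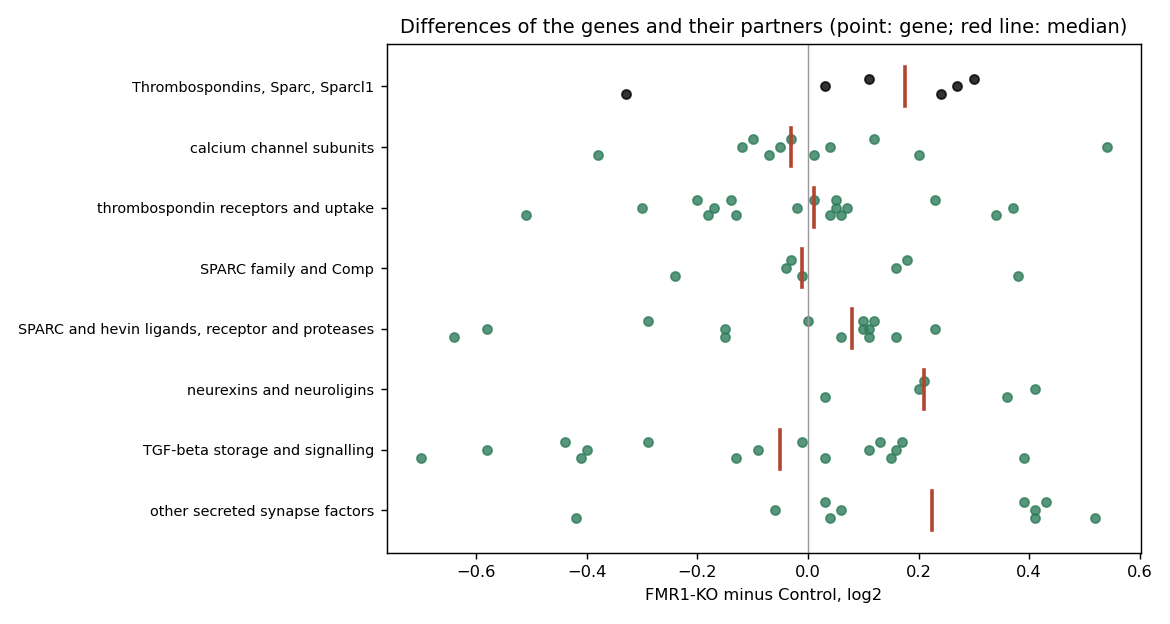
Each point is the FMR1-KO minus Control difference of 1 gene on the log2 scale, and the red line is the median of the list. The first row holds the 6 tested thrombospondin, *Sparc* and *Sparcl1* genes, whose median is 0.18, and the lists below hold their partners, with medians between -0.05 and 0.23.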

How the data were processed

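The authors deposited log2 signal levels per probe set from 10 Affymetrix arrays; the scale was read from the values (4.31 to 13.86, array medians 6.11 to 6.24). Per the series' design text they compared the groups in GeneSpring; how background was corrected, arrays normalized and probe sets summarised is not stated in any source used here. Of 33793 probe sets, 23521 have 1 symbol in the platform annotation. The brightest per gene was kept, and genes with a mean under the 25th percentile of all probe sets (5.32) were left out. FMR1-KO minus Control was fitted on all genes with limma 3.58.1 (lmFit, eBayes; R 4.3.3), and two-sided p-values were adjusted by Benjamini-Hochberg; the script was tested on simulated data. The number of arrays limits the precision. The genes, lists and alternatives were chosen with earlier results of these data known.

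Named are the 7 genes, *Fmr1*, the 2 genes with the smallest unadjusted p in each partner list, and the 2 genes nearest in profile to each of the 7, passing over predicted genes, small RNAs and olfactory or vomeronasal receptors. *Comp*, *Cd36* and *Cd47* were added for their roles after their values were seen. Same-numbered arrays of the 2 groups did not all deviate together (correlations across genes from -0.02 to 0.53), so the replicate number was not taken as a pairing.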

Additional observations from a re-analysis of the deposited data

How the results depend on the processing

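In 22 alternative fits (20 for *Cacna2d1*), none of the 7 genes passed the adjusted threshold, and the differences of *Thbs3* (0.21 to 0.30), *Thbs4* (0.13 to 0.35) and *Sparcl1* (0.07 to 0.41) kept their sign. The differences that turned were those of *Thbs1* without Control arrays 2 and 3 (-0.03), *Thbs2* without those arrays (-0.0043) and on leaving out single arrays (-0.0024 to 0.05), *Sparc* after adjustment for the microglia marker mean (0.02) and *Cacna2d1* on leaving out single arrays (-0.04 to 0.03); the cause was not tested. Leaving out single arrays gave 0.04 to 0.22 for *Thbs1*, -0.43 to -0.18 for *Sparc* and 0.22 to 0.39 for *Sparcl1*. The count of all genes past the threshold, 0, was 0 to 1 on leaving out single arrays (*Cnbd2* without Control array 5, adjusted p = 0.0237) and 1 without the 3 arrays low in microglia markers (*Tlcd1*, adjusted p = 0.0229), both named after their values were seen; the cause was not tested. At an unadjusted p under 0.05 the 1334 genes became 2425 without Control array 1, 804 and 794 without FMR1-KO arrays 1 and 2, 718 without Control arrays 2 and 3, and 815 with the microglia covariate. With the replicate number as a block there were 2080 such genes and 0 past the adjusted threshold, and the differences were 0.24 for *Thbs3*, 0.27 for *Thbs4*, -0.33 for *Sparc* and 0.30 for *Sparcl1*, with adjusted p from 0.333 to 0.401; it changed no call at the adjusted threshold. Of the 6 tested genes, 1 higher and 0 lower at an unadjusted p under 0.05 became 3 higher and 1 lower with the block, 2 higher with quantile normalization, array weights or a trended robust eBayes, and 1 higher and 1 lower without FMR1-KO array 4. Over all genes, 709 higher and 625 lower became 1006 and 1074 with the block and 868 and 666 with quantile normalization. They became 696 and 753 with array weights, 687 and 597 with the trended robust eBayes, and 834 and 741 without FMR1-KO array 4. Under the block limma's unadjusted p was 0.0222 for *Thbs3*, 0.0407 for *Thbs4*, 0.031 for *Sparc* and 0.012 for *Sparcl1*. Dim signal limits *Cacna2d1*. The mean levels of *Thbs2*, *Thbs3* and *Thbs4*, at 6.61, 6.73 and 6.58, also lay not far above the array medians. Whether these probe sets read above background is not known from the deposited values.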
